A study of Mus musculus with 24 samples.

Results

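The MAP kinase phosphatases are the dual-specificity phosphatases of the Dusp family that act on MAP kinases, and 10 of them were taken from the count table by gene symbol: Dusp1, Dusp2, Dusp4, Dusp5, Dusp6, Dusp7, Dusp8, Dusp9, Dusp10 and Dusp16. Each symbol had 1 row among the 25941 genes of the table, and 9 of the 10, all but Dusp9, were among the 14528 genes with enough reads to be tested. The genes were selected by name, and the family itself was chosen by the Dusp1 levels, already known from these libraries to be lower in both drug groups. The Dusp1 differences from control are therefore given as a description, without a test.

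The libraries came from thoracic aorta of adult male wildtype C57BL/6 mice aged 10 to 12 weeks. The mice ate regular chow for 3 weeks with celecoxib at 100 mg/kg/day, with rofecoxib at 50 mg/kg/day or with no drug added, the last being the control. Both drugs are selective inhibitors of cyclooxygenase-2, the inducible enzyme of prostaglandin synthesis. All 3 groups, control included, received an intraperitoneal injection of IL-1beta, an inflammatory cytokine, at 10 ug/kg, 4 h before collection at ZT11, so no group without IL-1beta bears on these values. Each group had 8 libraries that the study calls biological replicates. The control libraries were the same 8 in both drug comparisons, and the drug doses differed, so values for the drugs are given side by side at unequal doses.

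MAP kinases are active when a threonine and a tyrosine in their activation loop are both phosphorylated, and these phosphatases remove both phosphates. Dusp1, Dusp2, Dusp4 and Dusp5 encode inducible nuclear enzymes, Dusp6, Dusp7 and Dusp9 encode cytoplasmic enzymes that prefer ERK, and Dusp8, Dusp10 and Dusp16 encode enzymes that prefer JNK and p38. Several are transcribed in response to the kinases they switch off, and Dusp1 is also induced by glucocorticoids.

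The libraries held between 21668798 and 21700121 counted reads, and the biological coefficient of variation was 19.6%. Smooth muscle marker genes summed to between 26091 and 42164 CPM in the 24 libraries, CPM being the reads of a gene per 1000000 reads of a library after TMM scaling, which are high levels for the labelled tissue's main cell type. The summed level of 7 adipocyte markers ranged from 545 to 2526 CPM in control, 571 to 1505 with celecoxib and 762 to 3199 with rofecoxib. Markers of T cells summed to at most 4.46 CPM and those of B cells to at most 3.83 CPM in any library. No marker in the table was at 0 in every library.

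The 250 bases before the annotated start of Dusp1, Dusp8 and Dusp10 are shown because Dusp1 is the member the family was taken up for, Dusp8 is the member whose promoter shares the Dusp1 motif described here, and Dusp10 was the relative furthest from control with celecoxib at a level above a few CPM. The sequences are RefSeq's on build GRCm38.p6, printed 5′ to 3′ on the strand of the gene. Capitals mark TGACGTCA, the palindromic cAMP response element, its core TGACG on either strand, and the E-box CACGTG. Dusp1 lies at chr17:26508473-26508722 (minus strand), Dusp8 at chr7:142095285-142095534 (minus strand) and Dusp10 at chr1:184034131-184034380 (plus strand).
Dusp1: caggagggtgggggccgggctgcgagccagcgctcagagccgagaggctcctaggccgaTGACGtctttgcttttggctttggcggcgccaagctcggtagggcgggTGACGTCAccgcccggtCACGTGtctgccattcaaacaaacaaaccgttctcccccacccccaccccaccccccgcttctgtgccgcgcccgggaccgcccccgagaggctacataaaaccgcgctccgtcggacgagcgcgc
Dusp8: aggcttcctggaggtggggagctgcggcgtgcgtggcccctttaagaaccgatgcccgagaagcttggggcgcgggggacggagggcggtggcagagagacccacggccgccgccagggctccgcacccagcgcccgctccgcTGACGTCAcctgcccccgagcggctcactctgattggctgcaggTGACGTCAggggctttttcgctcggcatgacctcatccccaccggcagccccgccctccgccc
Dusp10: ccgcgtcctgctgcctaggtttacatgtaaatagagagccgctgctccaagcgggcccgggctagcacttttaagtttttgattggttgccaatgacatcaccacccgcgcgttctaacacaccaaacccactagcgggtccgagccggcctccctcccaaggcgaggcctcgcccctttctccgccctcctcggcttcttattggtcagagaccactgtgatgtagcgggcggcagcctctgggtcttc

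In the Dusp1 sequence TGACGTCA began 143 bases before the start and CACGTG 126 bases before it, with a further TGACG at 191. The Dusp8 sequence held TGACGTCA at 107 and again at 63 bases before the start, and the Dusp10 sequence held neither motif. Both strands were searched, and each TGACGTCA contains TGACG on both of them. Of the 8 members with a promoter in the table, 2 held TGACGTCA, against 1.55% of all 32851 promoter windows of this length. CACGTG stood in 2 of 8, Dusp1 and Dusp2, against 6.02% of all windows, and TGACG in 4 of 8 against 17.8%. Dusp5 was the member with a CArG box, the serum response element core, at 82 and 72 bases before its start, which 1.47% of windows held. TGANTCA, the AP-1 motif, was in none of the 8 and in 6.75% of all windows. The 8 windows held 56.4% to 77.2% G and C, and the windows they are set against were not matched for this. The part of base composition in these shares was not tested. Such matches describe these letters in these windows and do not mark bound sites.

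In control aorta Dusp1 carried by far the most transcript of the family per length. In CPM per kilobase of exon, its control mean was 55.3, followed by Dusp7 at 10.5, Dusp6 at 8.22, Dusp16 at 4.08, Dusp10 at 3.48, Dusp8 at 3.05, Dusp5 at 2.26, Dusp2 at 0.615, Dusp4 at 0.352 and Dusp9 at 0.0257. The control ranges of neighbours in this order did not overlap between Dusp1 and Dusp7, Dusp7 and Dusp6, Dusp6 and Dusp16, and Dusp5 and Dusp2. The ranges of Dusp16 and Dusp10, Dusp10 and Dusp8, Dusp8 and Dusp5, and Dusp2 and Dusp4 overlapped. Compared within each control library, the first gene of these pairs was the higher in 6, 6, 7 and 8 of 8 libraries, in that order. The highest Dusp9 control library lay just below the lowest Dusp4 control library, both 0.0695 when rounded, and Dusp4 was the higher in 8 of 8 control libraries. With the drugs the mean order changed in the middle and at the low end. The Dusp10 mean stood above that of Dusp16 per kilobase with celecoxib (6.05 against 4.06) and with rofecoxib (5.09 against 3.82). The Dusp4 mean stood above that of Dusp2 with celecoxib (0.622 against 0.465) and with rofecoxib (1.20 against 0.764). Not every library followed these means. Dusp10 lay below Dusp16 in some rofecoxib libraries, and Dusp4 below Dusp2 in some libraries of each drug group.

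**Figure D1:**
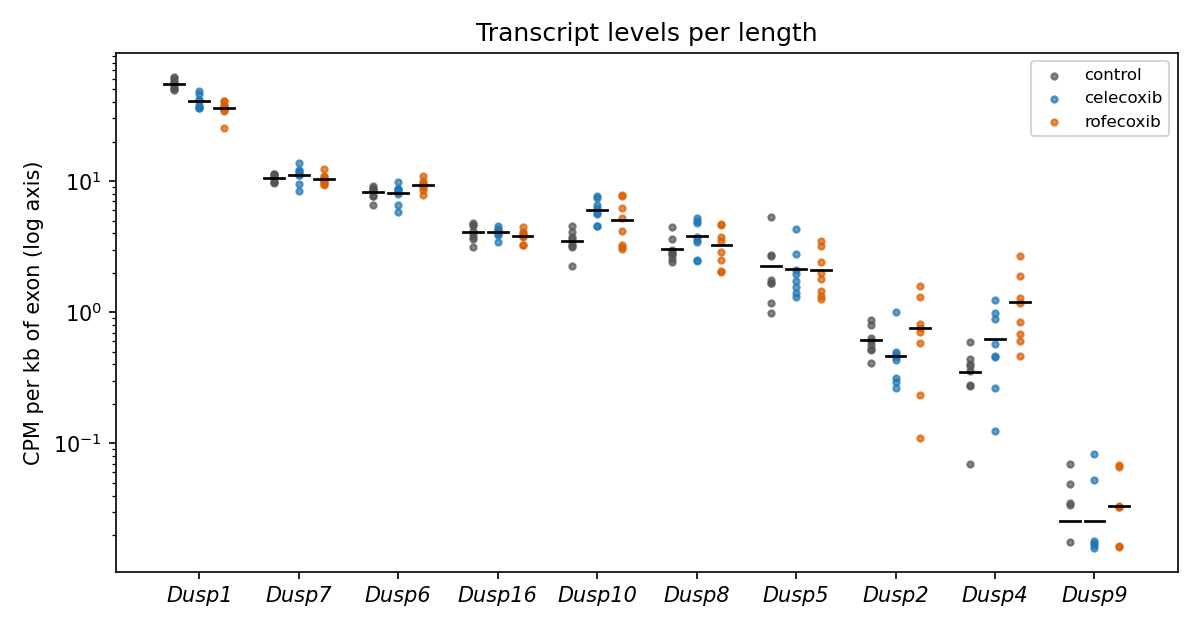
Level per length of the 10 phosphatase genes, in CPM per kilobase of exon on a log axis, ordered by the control mean. Each point is 1 of 8 libraries in the control, celecoxib and rofecoxib groups, bars are group means, and libraries with no Dusp9 read cannot be drawn on this axis. Dusp1 stands apart at the top with a control mean of 55.3, and Dusp9 at the bottom with 0.0257.

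Among the inducible nuclear enzymes, Dusp1 was lower in every drug-fed aorta than in any control aorta. Dusp1 (ENSMUSG00000024190, mm9 chr17:26642333-26645666), the first MAP kinase phosphatase known as an immediate early gene, acts on p38, JNK and ERK. In control it ranged from 164 to 207 CPM with a median of 182, and its mean was 183 ± 16.3 (SD, n = 8). With celecoxib it ranged from 118 to 161 with a median of 131 and a mean of 134 ± 15.8 (SD, n = 8). With rofecoxib it ranged from 83.8 to 135 with a median of 123 and a mean of 119 ± 16.2 (SD, n = 8). Thus 8 of 8 libraries of each drug group lay below every control library. Groups separated in this way, downwards, for 0.145% of the tested genes with celecoxib and for 0.509% with rofecoxib. The fitted log2 differences were -0.45 (SE 0.08) with celecoxib and -0.62 (SE 0.08) with rofecoxib. Total RNA of a whole vessel wall does not tell fewer cells of a type from less RNA per cell, here or for the other members.

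The size of the Dusp1 difference varied between sets of libraries. In replicates 1 to 4 alone the log2 difference was -0.43 with celecoxib and -0.86 with rofecoxib, and in replicates 5 to 8 alone it was -0.49 and -0.39. The labels do not say what the replicate numbers stand for beyond naming libraries. With the adipocyte and macrophage marker levels as covariates it was -0.50 with celecoxib and -0.60 with rofecoxib.

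The share of the family's reads that Dusp1 took was lower in the drug groups. The 10 rows summed to 309 ± 23.0 CPM in control, 273 ± 21.0 with celecoxib and 254 ± 21.4 with rofecoxib (SD, n = 8 each). Without Dusp1 the sums were 126 ± 8.97, 139 ± 11.8 and 135 ± 11.6 CPM in the same order. Dusp1 took 59.2% ± 1.69 of the family's reads in control, with libraries from 57.2% to 62.3%. It took 48.9% ± 3.27 with celecoxib (45.9% to 55.9%) and 46.7% ± 3.97 with rofecoxib (39.2% to 52.1%). These shares follow from the values that led to the family being taken up and carry no test.

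Dusp4 rose with rofecoxib. Dusp4 (ENSMUSG00000031530, mm9 chr8:35870149-35883150) encodes a nuclear phosphatase of ERK, JNK and p38. It had few reads, 4 to 35 per control library, 7 to 74 with celecoxib and 27 to 165 with rofecoxib. Control libraries ranged from 0.191 to 1.63 CPM with a median of 1.03 and a mean of 0.963 ± 0.418 (SD, n = 8). Celecoxib libraries ranged from 0.341 to 3.37 with a median of 1.42 and a mean of 1.70 ± 1.04 (SD, n = 8). Rofecoxib libraries ranged from 1.26 to 7.31 with a median of 2.75 and a mean of 3.29 ± 2.06 (SD, n = 8). In the rofecoxib group 7 of 8 libraries were above every control and 8 of 8 above the control mean, while 3 of 8 celecoxib libraries were above every control. The log2 fold change with rofecoxib was 1.77 (SE 0.41, 95% interval 0.91 to 2.62, adjusted p = 0.0191, edgeR quasi-likelihood test with Benjamini-Hochberg adjustment over all tested genes). With celecoxib it was 0.82 (SE 0.42, interval -0.04 to 1.69, edgeR adjusted p = 0.388). In replicates 1 to 4 and 5 to 8 fitted apart, the rofecoxib value was 1.59 and 1.99 and passed in neither (edgeR adjusted p = 0.154 and 0.133).

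Dusp4 was the 1 member of the 8 tested without Dusp1 that passed the threshold of 0.05 with rofecoxib, where 6.94% of all tested genes passed, 3.88% upwards and 3.06% downwards. DESeq2 called Dusp4 and Dusp10 of the 8, against 12.5% of all genes, and limma voom called Dusp4, against 16.9%. With celecoxib none of these 8 passed in edgeR, where 0.0344% of all genes passed, 0.00688% upwards and 0.0275% downwards. At an unadjusted p under 0.05, 1 of the 8 passed with celecoxib (Dusp10) and 2 of the 8 with rofecoxib (Dusp4 and Dusp10), against 13.6% and 28.2% of all genes. The count of 1 in 8 with rofecoxib is near the background share.

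The Dusp4 level moved with adipocyte markers. The summed adipocyte markers had medians of 1082 CPM in control, 1140 with celecoxib and 2314 with rofecoxib, and 3 of the 7 (Lep, Pparg and Fabp4) passed the edgeR threshold upwards with rofecoxib, none with celecoxib. Within groups, the deviation of Dusp4 from its group mean correlated with that of the adipocyte marker level over the 24 libraries with Pearson r = 0.79 (permutation p = 2e-05, adjusted over 90 member and marker relations 0.0018) and Spearman rho = 0.75 (permutation, adjusted p = 0.0121). Without the 2 libraries farthest from the median marker deviation r was 0.71. For brown adipocyte markers r was 0.72 (permutation, adjusted p = 0.0148), rho 0.72 (adjusted p = 0.0126) and r without the 2 farthest 0.70. For macrophage markers, whose sums ran from 148 to 228 CPM in control and 127 to 323 with rofecoxib, r was 0.57 (permutation, adjusted p = 0.0981). With adipocyte and macrophage levels as covariates in edgeR, the Dusp4 log2 fold change with rofecoxib was 0.65 (SE 0.35, adjusted p = 0.392), so it did not pass there. In that fit 16 of all tested genes passed with rofecoxib, against 1008 without the covariates. The Dusp4 value with celecoxib there was 0.91 (SE 0.30, edgeR adjusted p = 0.152). The cause of the Dusp4 difference was not tested.

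**Figure D2:**
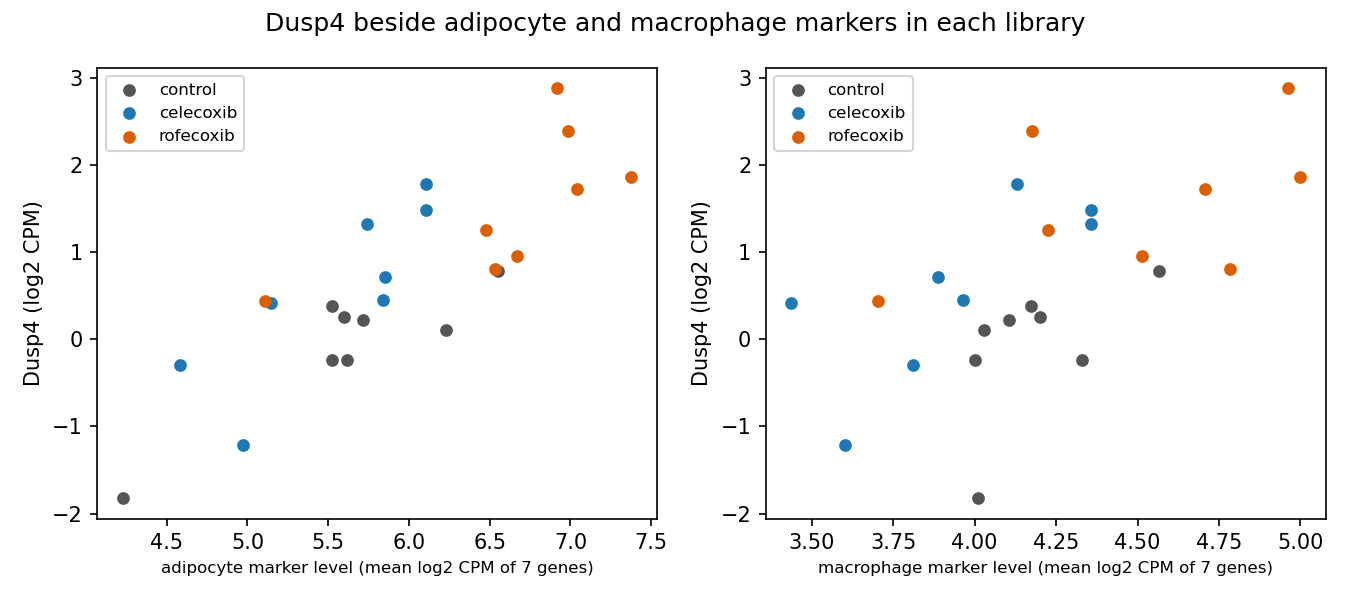
Dusp4 in log2 CPM against the mean log2 CPM of 7 adipocyte markers (left) and 7 macrophage markers (right), 1 point per library in the control, celecoxib and rofecoxib groups. Libraries with more adipocyte marker transcript had more Dusp4 (r = 0.79 for deviations from the group means), and 7 of 8 rofecoxib libraries lie above every control library in Dusp4.

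Dusp2 and Dusp5 did not pass the test against control with either drug. Dusp2 (ENSMUSG00000027368, mm9 chr2:127161693-127164314), a phosphatase best known from activated leukocytes, averaged 1.23 ± 0.306 CPM in control, 0.932 ± 0.465 with celecoxib and 1.53 ± 0.997 with rofecoxib (SD, n = 8 each). The groups overlapped, and the rofecoxib libraries alone ran from 0.221 to 3.18 CPM. The log2 fold change was -0.40 (interval -1.15 to 0.36) with celecoxib and 0.31 with rofecoxib, with edgeR adjusted p = 0.636 and 0.580. Its deviations correlated with those of neutrophil markers with r = 0.63 and rho = 0.60, which did not pass adjustment over the 90 relations (permutation, adjusted p = 0.069 and 0.060). Schwann cell and adipocyte markers had rho = 0.58 and 0.57 (permutation, adjusted p = 0.060 for both), so this was not particular to neutrophil markers. With endothelial markers rho was 0.71 (permutation, adjusted p = 0.0121), while r was 0.60 (adjusted p = 0.144) and 0.41 without the 2 libraries farthest from the median, so that relation passed by rank alone. The summed endothelial markers ran from 639 to 872 CPM in control, 647 to 1125 with celecoxib and 593 to 1124 with rofecoxib, and their part in the Dusp2 values was not tested. Dusp5 (ENSMUSG00000034765, mm9 chr19:53603397-53617123), a nuclear phosphatase of ERK, averaged 5.58 ± 3.47 CPM in control, 5.29 ± 2.42 with celecoxib and 5.23 ± 2.11 with rofecoxib (SD, n = 8 each). Its group means lay within the spread of the libraries, with edgeR adjusted p = 0.924 and 0.871. Control replicate 2 alone reached 13.3 CPM, and without it the log2 fold changes turned from -0.08 to 0.24 with celecoxib and from -0.09 to 0.22 with rofecoxib.

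None of the cytoplasmic ERK phosphatases that were tested, Dusp6 and Dusp7, passed against control. Dusp6 (ENSMUSG00000019960, mm9 chr10:98725663-98730324), itself an ERK target and feedback inhibitor, averaged 25.8 ± 2.65 CPM in control, 25.3 ± 4.10 with celecoxib and 29.2 ± 2.90 with rofecoxib (SD, n = 8 each). With rofecoxib its log2 fold change was 0.18 (interval 0.00 to 0.37, edgeR adjusted p = 0.185), and with celecoxib it was -0.03 (adjusted p = 0.912). Dusp7 (ENSMUSG00000053716, mm9 chr9:106270761-106278257), another ERK phosphatase, averaged 35.3 ± 2.34, 37.5 ± 5.45 and 34.8 ± 3.33 CPM in control, celecoxib and rofecoxib. Its log2 fold changes were 0.09 and -0.02, with edgeR adjusted p = 0.623 and 0.876. Dusp9 (ENSMUSG00000031383, mm9 chrX:70884556-70889055) had between 0 and 5 reads per library. The 8 libraries of each group together gave 12 reads in control, 12 with celecoxib and 16 with rofecoxib, too few for a comparison at this depth.

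Among the enzymes that prefer JNK and p38, Dusp10 lay furthest from control. Dusp10 (ENSMUSG00000039384, mm9 chr1:185836979-185899717) ranged in control from 6.88 to 13.9 CPM with a median of 10.5 and a mean of 10.6 ± 2.10 (SD, n = 8). With celecoxib it ranged from 13.9 to 23.5 with a median of 18.1 and a mean of 18.4 ± 3.55 (SD, n = 8). With rofecoxib it ranged from 9.30 to 23.8 with a median of 14.3 and a mean of 15.5 ± 6.06 (SD, n = 8). Of the celecoxib libraries, 7 of 8 were above every control and 8 of 8 above the control mean, so the groups met only at their edges. The rofecoxib libraries fell on both sides of the control maximum, with replicates 4, 6, 7 and 8 at 15.9 CPM or more and the other 4 at 12.7 CPM or less.

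The Dusp10 difference did not pass the edgeR threshold with either drug. With celecoxib the log2 fold change was 0.79 (SE 0.19, interval 0.40 to 1.19, unadjusted p = 0.00037 and Benjamini-Hochberg adjusted p = 0.125 in edgeR's model of all genes), and with rofecoxib it was 0.55 (SE 0.19, interval 0.15 to 0.94, adjusted p = 0.0748). With celecoxib it passed in DESeq2 (adjusted p = 0.017), in limma voom with sample weights (0.016), with edgeR on the 2 groups alone (0.018) and with a term that separates replicates 1 to 4 from 5 to 8 (0.048). Those settings called 110, 121, 45 and 174 of all genes (0.757% in DESeq2 and 0.833% in limma voom), against 5 in the edgeR fit of all groups. In the other edgeR settings Dusp10 did not pass with celecoxib. Its adjusted p was 0.123 with DESeq2's scaling, 0.124 with library size scaling, 0.171 without a filter and 0.115 at a mean of at least 1 CPM. It was 0.087 with the replicate block, 0.114 with marker covariates, and 0.231 and 0.145 in replicates 1 to 4 and 5 to 8. In replicates 1 to 4 and 5 to 8 the celecoxib values were 0.76 and 0.83, and the rofecoxib values 0.13 and 0.93. Leaving out rofecoxib replicate 3 or 5 brought the rofecoxib difference past the threshold (edgeR adjusted p = 0.048 and 0.044). The Dusp10 row overlaps 1700056E22Rik by 947 bp, a gene with 132 reads in all libraries, 1.70% of the 7742 reads of Dusp10.

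Dusp8 and Dusp16 did not pass the test. Dusp8 (ENSMUSG00000037887, mm9 chr7:149265193-149281950) averaged 14.9 ± 3.20 CPM in control, 18.6 ± 5.17 with celecoxib and 15.8 ± 5.11 with rofecoxib (SD, n = 8 each). Its log2 fold change with celecoxib was 0.32 (interval -0.07 to 0.71, edgeR adjusted p = 0.451) and with rofecoxib 0.09 (adjusted p = 0.788). Dusp16 (ENSMUSG00000030203, mm9 chr6:134665286-134742845) averaged 31.8 ± 4.47, 31.7 ± 2.52 and 29.8 ± 3.22 CPM in the same groups. Its log2 fold changes were -0.01 and -0.09, with edgeR adjusted p = 0.980 and 0.445.

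**Figure D3:**
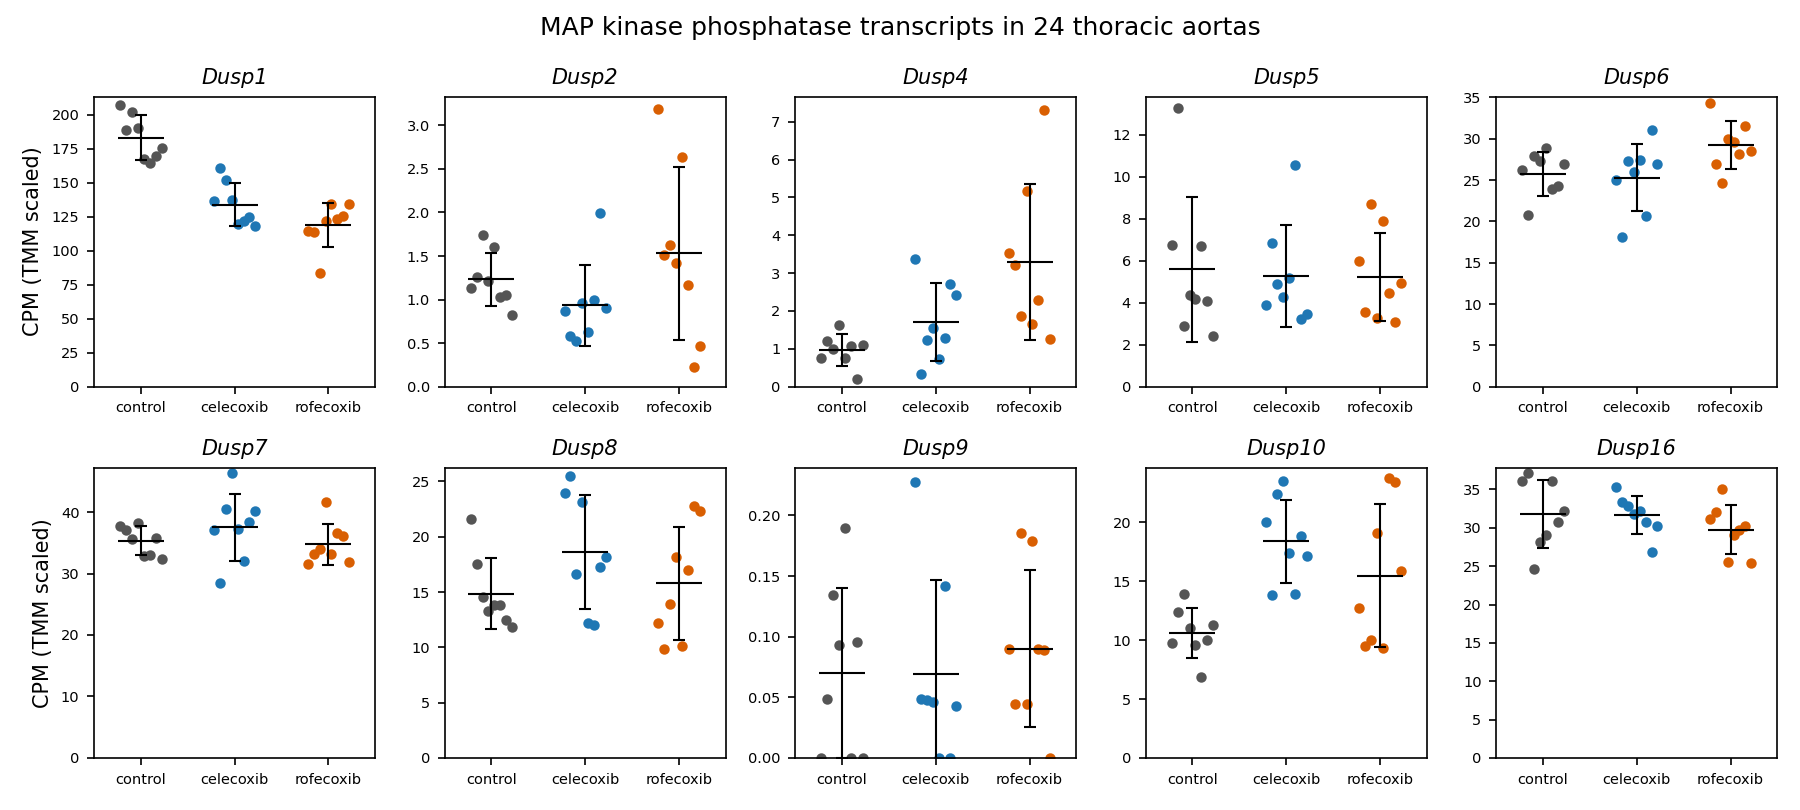
CPM of each of the 10 phosphatase genes in the 8 control, 8 celecoxib and 8 rofecoxib libraries, 1 point per library in order of replicate number, with the group mean and SD in black and every axis starting at 0. Dusp1 shows both drug groups wholly below control, Dusp10 shows the celecoxib libraries at 13.9 to 23.5 CPM against 6.88 to 13.9 in control, and Dusp4 spreads widely with rofecoxib, from 1.26 to 7.31 CPM.

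Dusp1 and Dusp10 stood in a different ratio in each drug group than in control. The ratio of Dusp1 to Dusp10 CPM in a library was 17.8 ± 3.21 in control (14.5 to 23.8), 7.52 ± 1.83 with celecoxib (5.85 to 11.6) and 8.64 ± 3.22 with rofecoxib (5.17 to 14.5). No celecoxib library reached the lowest control ratio, and the highest rofecoxib ratio lay close to it. Dusp1 was chosen for its fall, and Dusp10 was the relative furthest above control with celecoxib at a level above a few CPM. A lower ratio with celecoxib follows from these values, so the ratio is a description only.

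The median log2 fold change of the 9 tested members was -0.01 with celecoxib, where that of all genes was 0.00, and 0.09 with rofecoxib, where that of all genes was 0.02. The members thus went in both directions, 5 of 9 below 0 with celecoxib and 4 of 9 with rofecoxib, against 49.6% and 45.1% of all genes. Dusp1, whose fall led to the family being taken up, is among those below 0 with both drugs. These medians and counts are therefore a description only.

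Compared directly, the drug groups did not differ in any tested member by the edgeR threshold, which 4.89% of all genes passed, 0.564% higher and 4.32% lower with celecoxib. DESeq2 and limma voom called 0 of 9 as well, where 9.77% and 5.93% of all genes passed, and 2 of 9, Dusp4 and Dusp6, had an unadjusted edgeR p under 0.05, as did 23% of all genes. The doses were 100 mg/kg/day of celecoxib and 50 mg/kg/day of rofecoxib, so the comparison is of these diets. Dusp1 was 0.17 higher with celecoxib on the log2 scale (interval -0.00 to 0.34, edgeR adjusted p = 0.222). Dusp4 was lower with celecoxib, at -0.94 (interval -1.76 to -0.12, adjusted p = 0.150), as were Dusp2 at -0.71 (interval -1.45 to 0.04, adjusted p = 0.244) and Dusp6 at -0.21 (interval -0.39 to -0.02, adjusted p = 0.162). Dusp10 differed by 0.25 (interval -0.14 to 0.64, adjusted p = 0.470). These intervals leave room for differences of either small or moderate size, and no equality is shown. In replicates 1 to 4 alone, 3 members passed, Dusp1 at 0.44, Dusp2 at -1.39 and Dusp8 at 0.72 (edgeR adjusted p = 0.021, 0.018 and 0.035), where 14.1% of all genes passed. In replicates 5 to 8, where 0 genes passed in edgeR and 896 had an unadjusted p under 0.05, they stood at -0.09, 0.02 and -0.27.

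**Figure D4:**
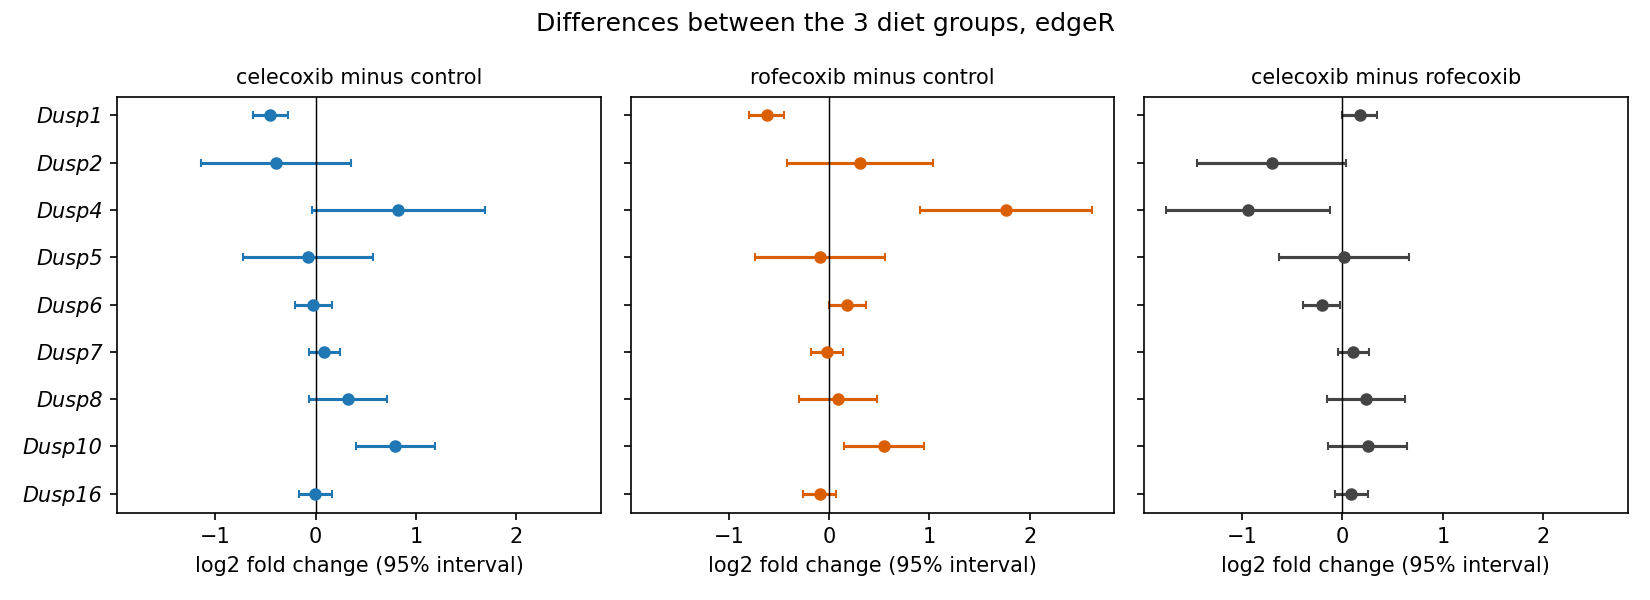
Log2 fold changes of the 9 tested phosphatase genes with 95% intervals from edgeR, for celecoxib minus control, rofecoxib minus control and celecoxib minus rofecoxib. Dusp1 lies below 0 against control with both drugs, Dusp10 above 0 with both, and Dusp4 furthest above 0 with rofecoxib at 1.77. The Dusp1 intervals against control are a description and no test, because its fall led to the family being taken up.

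Within groups, few members moved together from library to library. Of the 36 pairs of tested members, 2 passed by Pearson's r on deviations from the group means in log2 CPM over 24 libraries, after Benjamini-Hochberg adjustment over the 36 pairs. Dusp7 and Dusp10 deviated together, with r = 0.57 (permutation p = 0.00143, adjusted 0.0257), rho = 0.59 (adjusted p = 0.106) and r = 0.54 without the 2 libraries farthest from the median. Dusp5 and Dusp6 deviated in opposite directions, with r = -0.63 (permutation p = 0.00136, adjusted 0.0257), rho = -0.52 (adjusted p = 0.137) and r = -0.46 without the 2 farthest. Neither pair passed by rank correlation. Dusp1 and Dusp8, the members with TGACGTCA in the promoter window, had r = 0.45 and rho = 0.47 (permutation, adjusted p of r = 0.166), and Dusp1 and Dusp10 had r = 0.37 (adjusted p = 0.292). Neither reached the threshold.

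The genes most like Dusp1 across libraries were not its relatives. Among 13157 other genes, the 6 with the highest Pearson r with Dusp1 in log2 CPM over the 24 libraries were Efcab4a (0.84), Klf2 (0.83), Adam11 (0.81), Rhbdd2 (0.79), Chek1 (0.77) and Guca1b (0.77). Klf2 is a flow-responsive transcription factor of endothelium. The libraries share the group differences, so the 6 highest r of deviations from the group means were also taken, and these belonged to Wdr95 (0.75), Fam78b (0.72), Arntl (0.71), Has1 (0.70), Cdc42se1 (0.70) and Plb1 (0.69). Arntl encodes a core circadian clock factor. Each set of 6 is the top of 13157 ranked values, so these r carry no test and show no regulation of Dusp1. Of the members, Dusp8 ranked highest by deviations, at place 366, followed by Dusp10 at 861, and in levels Dusp4 had r = -0.53 with Dusp1.

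The genes around the phosphatases were read from lists of related enzymes, kinases and targets. Of all tested genes, 0.0344% passed with celecoxib and 6.94% with rofecoxib. All list values are from the edgeR fit without marker covariates, where 1008 genes passed with rofecoxib. With the adipocyte and macrophage covariates 16 passed, and in replicates 1 to 4 alone 42 did. The list genes in those fits are not given here, and the part of cell composition in their differences was not tested. Of 13 tested atypical dual-specificity phosphatases, which lack the MAP kinase binding domain, none passed with either drug, and Dusp18 and Dusp22 stood at 0.54 and 0.29 with rofecoxib (edgeR adjusted p = 0.0687 and 0.0796). Dusp22 was lower with celecoxib than with rofecoxib, by -0.42 (adjusted p = 0.0372). That call is from the edgeR fit of all groups. Between the drugs no gene passed in edgeR on the groups compared alone, with the replicate block or with the marker covariates. Of 7 other phosphatases that act on MAP kinases none passed, with Ptpn7 at 0.77 with rofecoxib (adjusted p = 0.0993). None of the 7 MAP kinase kinases passed, and the p38 activator Map2k3 stood at -0.27 and -0.31 with celecoxib and rofecoxib. The medians of these 3 lists lay between -0.01 and 0.10 in both drug groups.

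In the fit without marker covariates, single genes of the kinase lists passed the test with rofecoxib, and none did with celecoxib. The count of 1 per list with rofecoxib is near the background share of 6.94%, and with celecoxib 0.0344% of all tested genes passed. Of 12 tested MAP kinases Mapk14, which encodes p38 alpha, rose, from 59.2 ± 5.56 to 72.5 ± 10.7 CPM (SD, n = 8 each, log2 fold change 0.29, edgeR adjusted p = 0.0386). Of 14 kinases above the MAP kinase kinases Map3k6 fell, from 207 ± 13.4 to 149 ± 42.8 CPM (log2 fold change -0.48, adjusted p = 0.0348), and it stood at -0.36 with celecoxib. Of 13 p38 effector kinases and AU-rich element binding proteins Mapkapk3, a kinase downstream of p38, rose from 12.2 ± 1.83 to 16 ± 1.77 CPM (log2 fold change 0.39, adjusted p = 0.0224). Mapkapk3 was also lower with celecoxib than with rofecoxib, by -0.38 (adjusted p = 0.0372). This call too is from the edgeR fit of all groups, and no gene passed on the 2 drug groups fitted alone.

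Without marker covariates, some targets of the kinases passed the test with rofecoxib and none with celecoxib, beside 6.94% and 0.0344% of all tested genes. Of 13 ERK-induced feedback genes Spry4, an inhibitor of ERK signalling, fell with rofecoxib, from 52.8 ± 14.0 to 31.9 ± 5.71 CPM (log2 fold change -0.73, edgeR adjusted p = 0.0232), and stood at 34.5 ± 11 CPM with celecoxib (-0.61, adjusted p = 0.189). The list's median was -0.13 with celecoxib and -0.06 with rofecoxib. Of 18 immediate early genes, none passed with celecoxib and 2 fell with rofecoxib, Klf2 to 50.3 ± 8.99 CPM from 83.3 ± 9.37 and Btg2, an antiproliferative gene, to 95.6 ± 18.8 from 155 ± 31.7 (edgeR adjusted p = 0.0033 and 0.0121). Their medians were -0.32 with celecoxib and -0.27 with rofecoxib.

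The cytokine transcripts and Ptgs2, which carry AU-rich elements and are stabilised by p38 signalling, spread widely between libraries. Of 12 listed, 9 were tested, and with celecoxib none passed although 9 of 9 lay below 0, with a median of -1.03. Of all tested genes 49.6% lay below 0 with celecoxib, and 6.94% passed with rofecoxib. With rofecoxib the median was -0.69, Ptgs2 fell from 135 ± 34.4 to 81.9 ± 25.8 CPM (edgeR adjusted p = 0.0492) and Il1b rose from 1.55 ± 0.884 to 3.64 ± 1.75 CPM (adjusted p = 0.0313). Ptgs2 encodes cyclooxygenase-2, the target of both drugs. Il1b was lower with celecoxib than with rofecoxib, by -1.74 (adjusted p = 0.0369), in the edgeR fit of all groups. No gene passed between the drugs in edgeR on those groups alone or with the marker covariates. Neutrophils are a known source of Il1b, and their markers summed to 20.7 to 90.4 CPM in control, 9.79 to 38.5 with celecoxib and 21.9 to 131 with rofecoxib. Macrophage markers summed to 148 to 228 CPM in control, 97.9 to 212 with celecoxib and 127 to 323 with rofecoxib. The part of either cell type in the Il1b values was not tested.

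Of 11 other glucocorticoid-induced genes, 6 fell with rofecoxib and 1, Ddit4, with celecoxib, where 3.06% and 0.0275% of all tested genes fell. The list's medians were -0.51 and -0.33. This list was drawn up with the fall of some of its genes in these libraries known, so it is not independent evidence of a direction. Sgk1, a kinase of ion transport, averaged 195 ± 7.99 CPM in control, 151 ± 30.9 with celecoxib and 136 ± 18.5 with rofecoxib. Errfi1, an inhibitor of the EGF receptor, averaged 440 ± 51.7, 283 ± 157 and 230 ± 67.2 CPM, and Ddit4, an inhibitor of mTORC1, 82.7 ± 13.0, 32.3 ± 10.3 and 41.4 ± 18 CPM.

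**Figure D5:**
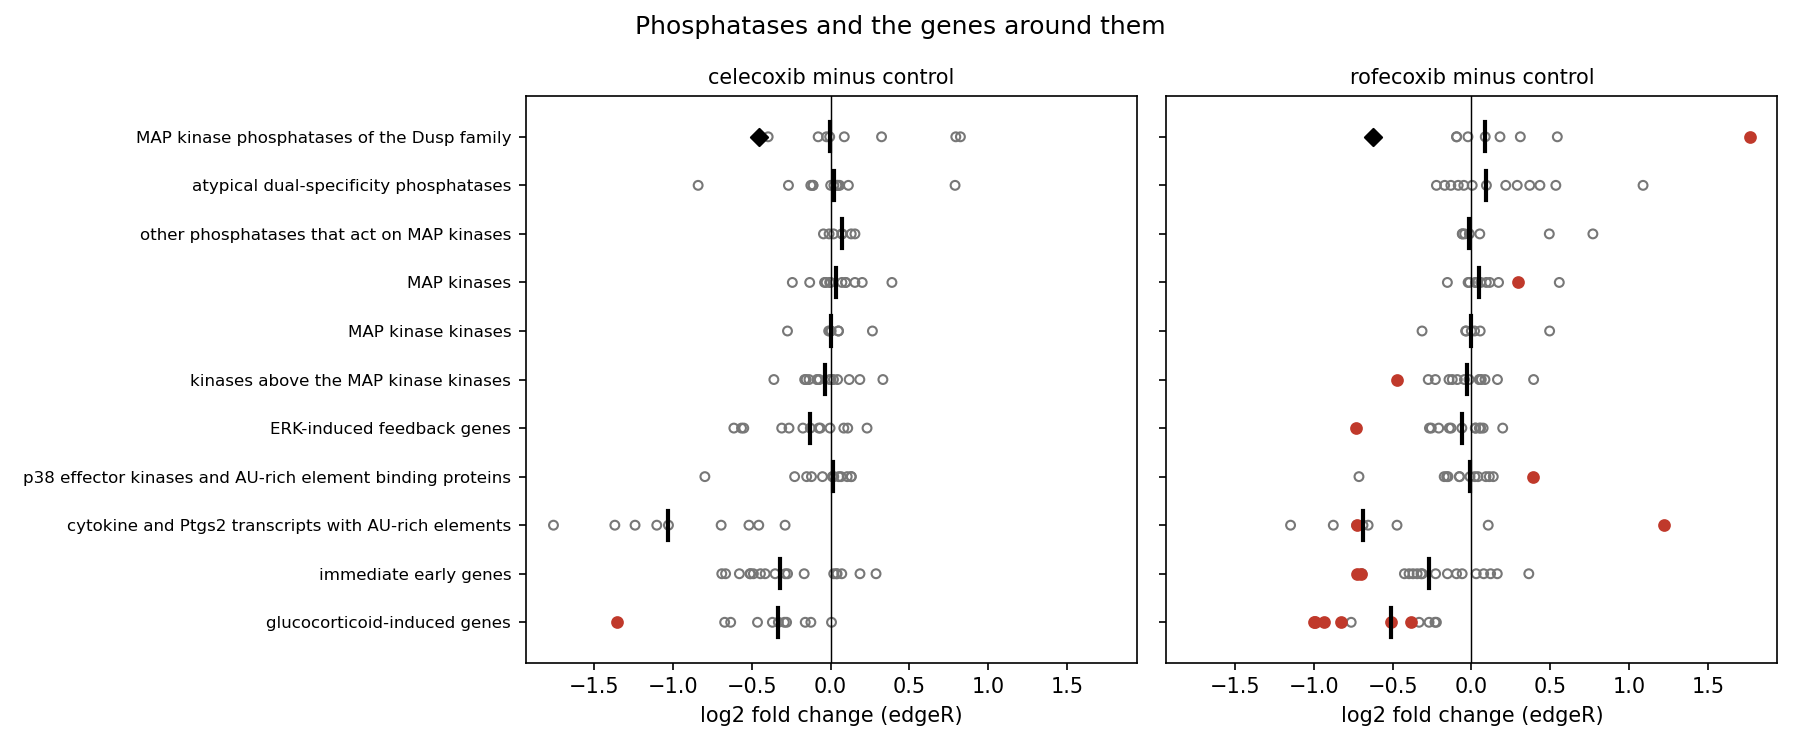
Log2 fold changes from edgeR of the tested genes in the phosphatase family and 10 surrounding lists, with celecoxib (left) and rofecoxib (right) against control. Each circle is a gene, filled red circles passed an adjusted p of 0.05, and black bars are list medians, which reach -1.03 for the cytokine list with celecoxib and -0.51 for the glucocorticoid-induced list with rofecoxib. The black diamond in the top row of each panel is Dusp1, shown without a call because its fall led to the family being taken up.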

How the data were processed

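The authors deposited gene counts, as whole numbers, for 24 libraries of polyA-selected RNA. The submitters' processing notes name CASAVA 1.8.1, STAR 2.5.1b and build mm9. The counting tool and its strand setting are not given in the sources used here. Totals lay between 21668798 and 21700121 reads, so close together that the counts may have been drawn to a common depth, which the sources used here do not state. No pair of libraries in a group agreed within counting noise (chi-square per degree of freedom at least 8.89).

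Counts were scaled by TMM and tested with edgeR 4.0.16 in R 4.3.3 (filterByExpr, quasi-likelihood test, 1 mean per group over all 24 libraries), with Benjamini-Hochberg adjustment over 14528 genes and a threshold of 0.05. The procedure was tested on simulated data. Alternatives were DESeq2 1.42.0, limma 3.58.1 voom with sample weights, other scalings and filters, only the groups compared, a replicate block, a term for and separate fits of replicates 1 to 4 and 5 to 8, marker covariates, and leaving out each library.

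Levels per kilobase used GENCODE union exon lengths. Promoters were the 250 bases before RefSeq starts (GRCm38.p6), and coordinates of genes are those of the table (mm9). Deviation correlations used 100000 permutations within groups. The members and lists were chosen with earlier results of these data known. Named were all 10 members, list genes that passed against control (up to 3 per list by smallest p, otherwise up to 2) and the 6 genes most like Dusp1 by each of 2 correlations. Genes passing in the direct drug comparison alone (Dusp22) and the marker genes Lep, Pparg and Fabp4 were named after their values were seen.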

Additional observations from a re-analysis of the deposited data

Results flagged for a closer look

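3 single libraries stood far from the others of their group, measured by the gap to the nearest library over the group's range. Of 30 groups of 8 libraries tested, 3 showed such a gap, and chance gives about 1 in 20. Dusp1 in rofecoxib replicate 3 was the lowest at 83.8 CPM, with the other 7 libraries at 113 to 135. Dusp2 in celecoxib replicate 7 was the highest at 1.99 CPM, with the others at 0.525 to 0.995. Dusp5 in control replicate 2 was the highest at 13.3 CPM, with the others at 2.44 to 6.75. The gap was 0.582, 0.681 and 0.601 of the range in these groups.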

How the results depend on the processing

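Against control, the direction of Dusp1, Dusp4 and Dusp10 held with both drugs, and that of Dusp7 and Dusp8 with celecoxib and of Dusp6 and Dusp16 with rofecoxib, under every alternative run. For the values that changed, given here by setting, the cause was not tested.

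The counts of members past the threshold against control include Dusp1, whose fall led to the family being taken up, so they describe the settings and nothing is read from its part in them. With celecoxib the count among the 9 members was 1. It was 0 with library size scaling, without a filter on low counts, with the replicate block and in replicates 1 to 4, and 2, with Dusp10 added, in DESeq2, limma voom, edgeR on the groups compared and with a term for replicates 1 to 4 against 5 to 8. It ranged from 0 to 1 when each library was left out, with Dusp1 log2 values from -0.49 to -0.42. Over all genes 5 passed. That count was 2 without a filter, 110 in DESeq2, 121 in limma voom, 45 with the groups compared alone, 27 with the replicate block, 174 with the term, 9 in replicates 1 to 4, 313 in replicates 5 to 8, 10 with marker covariates and 0 to 34 leaving out each library, the 34 without celecoxib replicate 2.

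With rofecoxib the count was 2, with Dusp4. It was 1, without Dusp4, in replicates 1 to 4, in replicates 5 to 8 and with marker covariates, 3 in DESeq2, with Dusp10 added, and 2 to 3 leaving out each library, Dusp10 being the added one without rofecoxib replicate 3 or 5. Dusp4 passed in 24 of 24 such fits, with log2 values from 1.49 to 1.92. Over all genes 1008 passed. That count was 557 without a filter, 1812 in DESeq2, 2448 in limma voom, 1735 with the term, 42 in replicates 1 to 4, 401 in replicates 5 to 8, 16 with covariates and 358 (without control replicate 2) to 1945 (without rofecoxib replicate 8) leaving out each library. The split of 563 higher and 445 lower became 1106 and 310 with library size scaling, and 498 and 502 with DESeq2's scaling in edgeR.

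Between the drugs no member passed, except 3 in replicates 1 to 4, and 0 did when any 1 library was left out. Over all genes 710 passed. That count was 1419 in DESeq2, 2073 in replicates 1 to 4, 0 without a filter, with the groups compared alone, with the replicate block, in replicates 5 to 8 and with covariates, and 0 to 1997 leaving out each library, the 1997 without rofecoxib replicate 8.

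Signs of small differences turned. With celecoxib, replicates 5 to 8 gave 0.0081 for Dusp2, 0.36 for Dusp5 and 0.025 for Dusp6. Covariates gave 0.0045 for Dusp6 and 0.030 for Dusp16, which also stood at 0.019 with library size scaling, 0.0001 without a filter and 0.082 in replicates 1 to 4. Leaving out each library, Dusp5 ranged from -0.30 to 0.24 (above 0 without control replicate 2), Dusp6 from -0.073 to 0.032 (above 0 without celecoxib replicate 2 or 6 or control replicate 5) and Dusp16 from -0.052 to 0.031 (above 0 without celecoxib replicate 7 or 8 or control replicate 1, 2 or 6). With rofecoxib, Dusp2 was -0.059 in limma voom, -0.0081 in replicates 5 to 8 and -0.40 with covariates. Dusp5 was 0.015 with the replicate block, 0.22 in replicates 5 to 8 and 0.050 with covariates, Dusp7 0.041 with library size scaling and 0.036 in replicates 5 to 8, and Dusp8 -0.30 in replicates 1 to 4. Leaving out each library, Dusp5 ranged from -0.24 to 0.22 (above 0 without control replicate 2) and Dusp8 from -0.0065 to 0.18 (below 0 without rofecoxib replicate 7 or 8). Between the drugs, replicates 5 to 8 gave -0.093 for Dusp1, 0.016 for Dusp2, -0.27 for Dusp8 and -0.10 for Dusp10. Covariates gave 0.11 for Dusp2, 0.26 for Dusp4 and -0.097 for Dusp5. Dusp5 was also -0.033 with library size scaling, -0.065 with the replicate block and -0.11 in replicates 1 to 4, and ranged from -0.20 to 0.16 leaving out each library (below 0 without celecoxib replicate 2 or 6 or rofecoxib replicate 2, 4, 6 or 7).

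The labels do not say that the replicate numbers pair the samples, and the deviations of same-numbered libraries, which correlated between -0.30 and 0.56, did not do so for every number, so the numbers were not used as pairs. The best match carried the same number in 13 of 48 cases, where arbitrary numbers would give 6, a hint from the data and not from the design. The replicate block called 1187 genes with rofecoxib. By Spearman's rho 3 of the 6 genes most like Dusp1 were shared for levels and 3 for deviations, and library size scaling shared 2 for deviations. Dusp2, Dusp4 and Dusp9 rest on few reads, which limits the precision of their values.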
